A study of Mus musculus with 10 samples.

Results

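Macrophage activation effectors are genes whose products carry out, or switch on, what an activated macrophage does. The 10 genes Arg1, Nos2, Chil3, Retnla, Il10, Il4ra, Hmox1, Il12b, Cd80 and Cd86 were selected by symbol, each matched to a single Ensembl identifier, from the 37417 genes of a bulk RNA-seq count table. The table covered 10 tumors that Panc02 cells, a pancreatic cancer line of the mouse, formed under the skin of C57BL/6J hosts with a wild-type genotype. The mice were 12 weeks old, and tumors were taken on day 16 after injection. Cancer cells of 5 tumors bore a guide (sgCda) to Cda, which encodes the pyrimidine salvage enzyme cytidine deaminase, and those of the other 5 a nontargeting guide (sgNT). Per the study's methods, cells of both groups carried a doxycycline-inducible Cas9 nuclease, and only the cancer cells were edited, so host cells kept an intact Cda. The labels name no treatment. The question for these genes was whether macrophage activation differed between tumors with and without the Cda guide.

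Macrophages change their gene programme with the signals they meet. Interferon-γ and bacterial products drive classical activation, with nitric oxide synthesis, IL-12 and costimulatory ligands, whereas IL-4 and IL-13, acting through the IL-4 receptor and the transcription factor STAT6, drive alternative activation, with arginase and the secreted proteins of Chil3 and Retnla. IL-10 and heme oxygenase restrain inflammation. Macrophages in tumors often express genes of both programmes at once.

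Libraries held 28051907 to 39484964 counts assigned to genes, so the floor of 3 counts equalled 0.0760 to 0.107 CPM (counts scaled to a common library size). Macrophage markers were abundant in every tumor: the 12 listed ones summed to 5418 to 8297 CPM in the sgNT group and 5132 to 8700 CPM in the sgCda group. Cda itself averaged 12.1 ± 1.76 CPM with sgNT against 9.77 ± 2.34 CPM with sgCda (SD, n = 5 each), and the ranges overlapped (log2 fold change −0.30, edgeR quasi-likelihood test, unadjusted p = 0.0963, adjusted 0.9996). Counts over the whole gene in bulk tumor, host cells included, do not measure editing of the cancer cells. Per its methods, the study checked silencing with RT-qPCR and western blots. The tumor labelled sgCda replicate 4 stood apart in quality measures, with 5.82% of counts from mitochondrial genes against 3.47% to 3.81% in the others, and 18.4% of uniquely aligned reads outside genes against 10.3% to 14.9%. In bulk tissue, fewer cells of a type and less RNA per cell cannot be told apart.

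Retnla and Chil3, both known targets of the IL-4 pathway, varied between tumors more than most genes, and the bases before their start sites are shown because they hold the spaced half-sites that STAT factors bind. The sequences are from RefSeq (build GRCm38.p6), whose promoter table held 5 of the 10 genes (Chil3, Il4ra, Il12b, Cd80 and Retnla). The Chil3 stretch ends at the base before its RefSeq start. GENCODE, from which the gene positions in this text are taken, starts Retnla 58 bases upstream of RefSeq, and its stretch ends before the GENCODE start. Capitals mark TTC followed by GAA after 3 or 4 bases, motifs that read alike on both strands.
Retnla, chr16:48842359-48842550, plus strand: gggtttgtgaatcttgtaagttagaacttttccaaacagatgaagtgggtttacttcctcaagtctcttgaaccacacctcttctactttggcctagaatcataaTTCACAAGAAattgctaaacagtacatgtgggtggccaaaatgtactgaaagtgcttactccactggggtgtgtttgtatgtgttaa
Chil3, chr3:106167565-106167814, minus strand: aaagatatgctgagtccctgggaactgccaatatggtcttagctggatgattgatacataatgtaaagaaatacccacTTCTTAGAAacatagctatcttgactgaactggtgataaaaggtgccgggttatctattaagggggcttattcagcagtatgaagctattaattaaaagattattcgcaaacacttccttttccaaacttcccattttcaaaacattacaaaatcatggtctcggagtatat

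The Retnla match, TTCACAAGAA, ran from −145 to −136, counted from the RefSeq start, and had a spacing of 4 bases. The Chil3 match, TTCTTAGAA, ran from −172 to −164 and had a spacing of 3. Over all 32851 promoter windows of 300 bases in the table (250 before the start, 50 after), 6.95% held the motif with 4 bases between and 8.3% that with 3. Neither motif was found in the windows of Il4ra, Il12b or Cd80. All windows and positions here follow the RefSeq start. Of the 250 bases before that start, 151 in Il4ra and all 250 in Cd80 lie inside the GENCODE gene. Bases before the GENCODE start of Cd80 were therefore not searched. Both strands were searched for further motifs. TATAAA (in 13.6% of all windows) was found at −30 to −25 in Retnla and at −3 to 3 in Chil3. In Cd80 it lay at 5 to 10, on the strand opposite to the gene. CCAAT (37.4%) was found at −223 to −219 in Chil3. TGAC followed by GC after 3 bases (12.4%), the core of antioxidant response elements, was found at −60 to −52 in Il4ra. ACGTG (19.6%), the core of hypoxia response elements, was in none of the 5 windows. A match describes the letters only, and binding was not measured.

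Across the transcriptome 15299 genes were tested, the 10 effectors among them. None of the effectors passed an adjusted p of 0.05 in edgeR's quasi-likelihood test, where the background over all genes was 0% (0 genes), and 0 of the 10 had an unadjusted p under 0.05, where the background was 2.5% (382 genes). The unadjusted count over all genes was 433 with DESeq2 and 317 with limma-voom, and the adjusted count was 0 with both. All 10 confidence intervals included no change. The values of both groups overlapped for each of the 10 genes, and they did not overlap in 0.601% of all genes tested. Log2 fold changes, sgCda minus sgNT, were positive in 7 effectors and negative in 3, where 8094 of all 15299 genes tested were positive. The median was 0.12 against 0.0078 over all genes tested. Leaving out 1 tumor could turn the positive signs of Arg1, Chil3, Retnla, Il10, Hmox1 and Cd86 and the negative sign of Il12b.

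**Figure D1:**
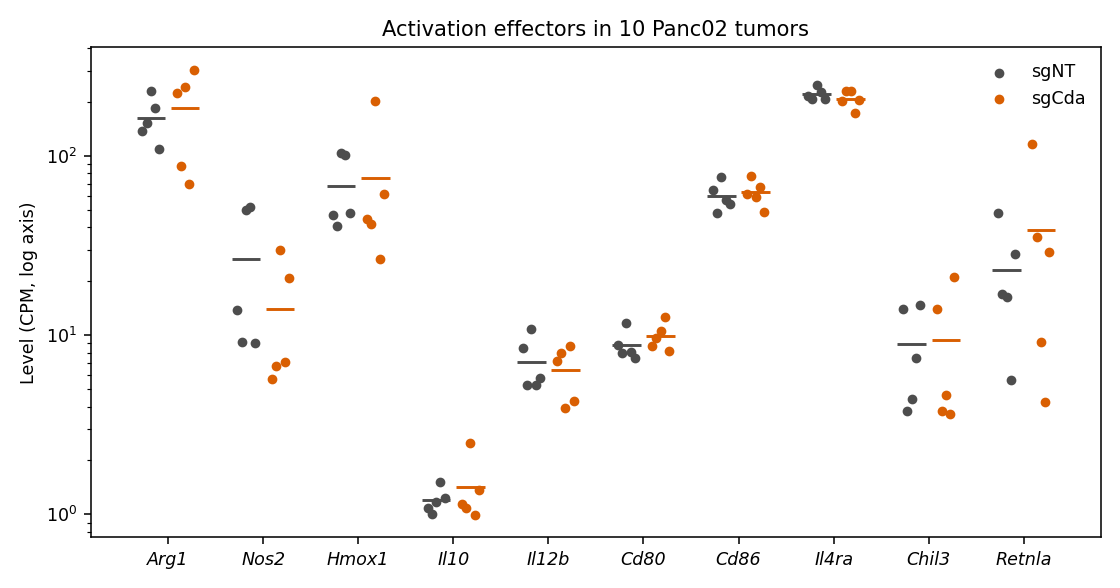
Levels of the 10 effectors in CPM on a log axis, with a point for each of 5 sgNT (grey) and 5 sgCda (orange) tumors and a bar at the group mean. Groups overlap for every gene, and Retnla has the widest range, from 4.25 to 116.1 CPM.

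**Figure D2:**
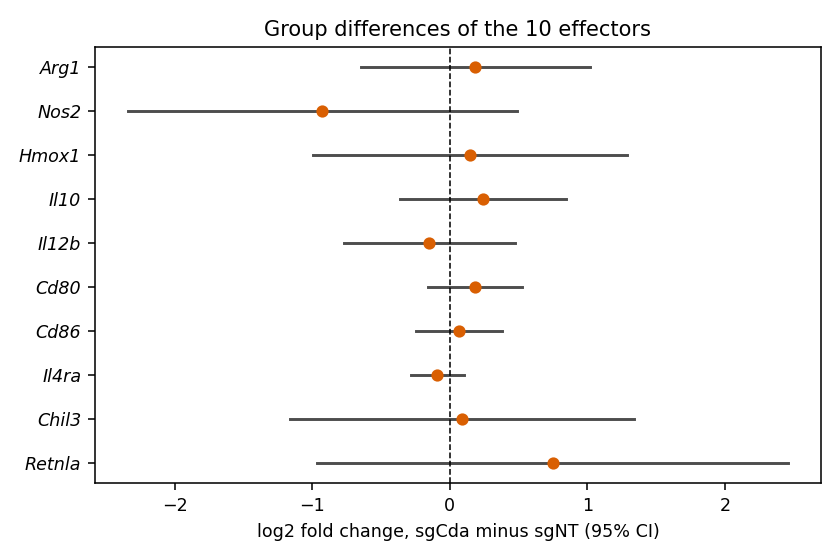
Log2 fold change of each effector, sgCda minus sgNT, as a point with its 95% confidence interval (edgeR, n = 5 tumors a group). Every interval crosses 0, and the narrowest is that of Il4ra (−0.28 to 0.10).

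The enzymes that compete for arginine were examined first. Arg1 (ENSMUSG00000019987, GRCm38 chromosome 10, 24915221 to 24927484, 8 exons) encodes arginase, which splits arginine into ornithine and urea. By replicate number, sgNT tumors held 137.8, 153.1, 230.3, 185.2 and 108.9 CPM of Arg1 and sgCda tumors 223.4, 87.8, 242.4, 69.8 and 303.5 CPM. The sgCda tumors took both the lowest and the highest places of all 10, with 1 of 5 inside the sgNT range. Means were 163.1 ± 46.6 and 185.4 ± 101.9 CPM (SD, n = 5 each), with a log2 fold change of 0.19 (SE 0.38, 95% CI −0.64 to 1.02, edgeR unadjusted p = 0.633, adjusted 0.9996). The sign rested on sgCda replicate 5, without which the log2 fold change was −0.063.

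Nos2 (ENSMUSG00000020826, chromosome 11, 78920787 to 78960254, 27 exons) encodes inducible nitric oxide synthase. It was counted at 13.8, 9.19, 49.8, 51.9 and 9.0 CPM in sgNT tumors and at 5.69, 6.69, 29.8, 7.09 and 20.9 CPM in sgCda tumors. Replicates 3 and 4 of the sgNT group and replicates 3 and 5 of the sgCda group were the high ones, and 3 sgCda tumors lay below every sgNT tumor. Means were 26.7 ± 22.1 and 14.0 ± 10.8 CPM (SD, n = 5 each). Between groups, edgeR estimated a log2 fold change of −0.93 (SE 0.64, 95% CI −2.34 to 0.48), smaller than the tumor-to-tumor spread could resolve (edgeR unadjusted p = 0.176, adjusted 0.9996). It kept its sign in all 19 alternatives, from −1.41 without sgCda replicate 3 (edgeR unadjusted p = 0.0536) to −0.55 without sgNT replicate 4.

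Levels of different genes were compared per kilobase of exon. On this scale Arg1 exceeded Nos2 in all tumors, by a ratio of 7.07 to 33.0 in sgNT (median 19.8) and 16.1 to 77.8 in sgCda tumors (median 26.0). The ranges of this ratio overlapped. The lowest ratios were those of sgNT replicates 3 and 4, and the highest was that of sgCda replicate 1, which had the least Nos2 of all 10 tumors.

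Of 14 other genes of arginine metabolism, all were tested and 0 had an unadjusted p under 0.05 in edgeR (6 positive, 8 negative, median log2 fold change −0.014). The smallest p belonged to Nos3, the endothelial nitric oxide synthase, with means of 2.64 ± 0.229 CPM for sgNT against 2.18 ± 0.417 CPM for sgCda (SD, n = 5 each; log2 fold change −0.27, edgeR unadjusted p = 0.148, adjusted 0.9996). Arg2, the mitochondrial arginase, was scarce, at 0.613 to 1.71 CPM across the 10 tumors.

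Next, the secreted products of alternative activation were compared. Chil3 (ENSMUSG00000040809, chromosome 3, 106147554 to 106167564, 11 exons) encodes a chitinase-like lectin without chitinase activity. Levels were 14.0, 3.79, 4.43, 7.48 and 14.7 CPM in sgNT tumors and 14.0, 3.78, 4.64, 3.65 and 21.2 CPM in sgCda tumors. High and low tumors occurred in both groups, with few values between. Means were 8.89 ± 5.2 and 9.46 ± 7.87 CPM (SD, n = 5 each) and the estimate was a log2 fold change of 0.088 (SE 0.57, 95% CI −1.16 to 1.34, edgeR unadjusted p = 0.880, adjusted 0.9996). Its sign changed without sgNT replicate 2 (−0.10), sgNT replicate 3 (−0.080), sgCda replicate 1 (−0.094) or sgCda replicate 5 (−0.45). Chil4, a near-identical copy, was counted once in all 10 libraries, and reads that align to both copies are left out by HTSeq, so the level of Chil3 is uncertain.

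Retnla (ENSMUSG00000061100, chromosome 16, 48842551 to 48844461, 4 exons) encodes a resistin-like protein made by macrophages stimulated with IL-4. It had the widest range of the 10 effectors. Values were 48.2, 17.1, 16.3, 5.62 and 28.3 CPM in sgNT tumors and 116.1, 35.3, 9.12, 4.25 and 29.0 CPM in sgCda tumors, so that the highest tumor exceeded the lowest 27.3-fold within the sgCda group. Means were 23.1 ± 16.2 and 38.7 ± 45.2 CPM (SD, n = 5 each), and 3 of 5 sgCda tumors lay inside the sgNT range. The fit gave a log2 fold change of 0.75 (SE 0.78, 95% CI −0.96 to 2.46, edgeR unadjusted p = 0.358, adjusted 0.9996). A single tumor set its direction: without sgCda replicate 1 the log2 fold change was −0.25.

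Per kilobase, Retnla exceeded Chil3 in all 10 tumors, by 2.05 to 12.3 times in sgNT and 3.17 to 25.4 times in sgCda tumors. Of 9 paralogs of these genes, Chil1, Retn and Retnlg were tested, and the other 6 (Chil4, Chil5, Chil6, Chia1, Chit1 and Retnlb) were too low. Retn, which encodes the adipocyte hormone resistin, ran from 0.477 to 22.2 CPM, with a log2 fold change of 1.08 (SE 0.92, edgeR unadjusted p = 0.265, adjusted 0.9996). Retnlg, a neutrophil gene, stayed at or below 1.08 CPM.

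Il4ra (ENSMUSG00000030748, chromosome 7, 125552120 to 125579474, 11 exons) encodes the receptor chain shared by IL-4 and IL-13. Unlike the secreted products it was even across tumors, at 206.8 to 249.6 CPM in sgNT (median 216.8) and 174.2 to 230.8 CPM in sgCda tumors (median 206.6). The estimate was a log2 fold change of −0.091 (SE 0.087, 95% CI −0.28 to 0.10, edgeR unadjusted p = 0.318, adjusted 0.9996), so the interval spans 0.822-fold to 1.07-fold. Without sgCda replicate 4 the log2 fold change was −0.032. It shares 571 exonic bases with Gm44876 on the opposite strand, and since the strand setting of the counting is not given in the sources used here, part of its count is uncertain.

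Among 22 other genes of the IL-4 and IL-13 pathway, 21 were tested and 0 had an unadjusted p under 0.05 in edgeR (12 positive, 9 negative, median log2 fold change 0.020). The ligand Il4 was too low to test, with 50 counts over all 10 libraries, and Il13 stood at 0.168 to 3.85 CPM. The receptor chain Il13ra1 averaged 291.2 ± 19.9 CPM with sgNT against 261.8 ± 38.0 CPM with sgCda, and Stat6 at 147.5 ± 2.36 and 140.8 ± 1.86 CPM (SD, n = 5 each; log2 fold change −0.066, edgeR unadjusted p = 0.156, adjusted 0.9996). Both were detected in all 10 tumors. The smallest p was that of Pparg, a nuclear receptor of alternative activation, with a log2 fold change of −0.22 (SE 0.14, edgeR unadjusted p = 0.135, adjusted 0.9996).

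Hmox1 and Il10 encode products that restrain inflammation. Hmox1 (ENSMUSG00000005413, chromosome 8, 75093621 to 75100589, 5 exons) encodes heme oxygenase, which breaks heme into biliverdin, iron and carbon monoxide. It stood at 47.1, 40.9, 103.8, 100.9 and 48.0 CPM in sgNT tumors and at 44.4, 41.8, 201.9, 26.8 and 61.4 CPM in sgCda tumors. The same tumors that were high in Nos2 led here, headed by sgCda replicate 3, and the other 6 lay between 26.8 and 48.0 CPM. Means were 68.1 ± 31.3 and 75.3 ± 71.9 CPM (SD, n = 5 each), with a log2 fold change of 0.14 (SE 0.52, 95% CI −1.0 to 1.28, edgeR unadjusted p = 0.786, adjusted 0.9996). Without sgCda replicate 3 it was −0.64 (edgeR unadjusted p = 0.0798).

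Il10 (ENSMUSG00000016529, chromosome 1, 131019845 to 131024974, 5 exons) encodes an anti-inflammatory cytokine and had the fewest counts of the effectors, 28 to 90 per library. Levels were 1.08, 1.01, 1.18, 1.51 and 1.23 CPM in sgNT tumors and 1.14, 1.09, 2.52, 0.992 and 1.36 CPM in sgCda tumors. Only sgCda replicate 3 stood clear of the rest. Between groups, edgeR estimated a log2 fold change of 0.24 (SE 0.27, 95% CI −0.36 to 0.85, edgeR unadjusted p = 0.397, adjusted 0.9996), and without that tumor it was −0.070.

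Genes around heme oxygenase and the NRF2 response were examined as a list. All 16 were tested and 0 had an unadjusted p under 0.05 in edgeR (7 positive, 9 negative, median log2 fold change −0.017). The smallest p, 0.317, was that of Slc40a1, the iron exporter (log2 fold change 0.40, SE 0.38, edgeR, adjusted 0.9996). The noninducible Hmox2 varied little, at 33.4 to 46.4 CPM. The IL-10 receptor chains Il10ra (88.5 to 146.8 CPM) and Il10rb (57.8 to 76.4 CPM) were detected in all tumors, with log2 fold changes of 0.027 and 0.016. Of the 10 genes of IL-10 and IL-12 signalling, 0 had an unadjusted p under 0.05, and the smallest, 0.0515, was that of Socs3, a feedback inhibitor of cytokine signalling (log2 fold change −0.19, SE 0.086, edgeR, adjusted 0.9996).

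Il12b (ENSMUSG00000004296, chromosome 11, 44400063 to 44414033, 8 exons) encodes the subunit shared by IL-12 and IL-23, cytokines that drive T cell responses. Its levels ran from 5.24 to 10.8 CPM in sgNT (median 5.81) and from 3.94 to 8.75 CPM in sgCda tumors (median 7.21). The fit gave a log2 fold change of −0.15 (SE 0.28, 95% CI −0.77 to 0.47, edgeR unadjusted p = 0.607, adjusted 0.9996), which turned to 0.051 without sgNT replicate 3. The partner subunit Il12a stood at 0.448 to 3.08 CPM, and the IL-23 subunit Il23a was too low to test, with 43 counts in all.

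Cd80 (ENSMUSG00000075122, chromosome 16, 38455561 to 38496335, 7 exons) and Cd86 (ENSMUSG00000022901, chromosome 16, 36603869 to 36666081, 8 exons) encode the ligands of CD28 and CTLA-4 on T cells. Cd80 was at 7.44 to 11.6 CPM in sgNT (median 8.07) and 8.16 to 12.6 CPM in sgCda tumors (median 9.68), with 4 of 5 sgCda tumors inside the sgNT range. The estimate was a log2 fold change of 0.18 (SE 0.16, 95% CI −0.16 to 0.52, edgeR unadjusted p = 0.266, adjusted 0.9996). Without sgNT replicate 3 it was 0.31 (edgeR unadjusted p = 0.0565).

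Cd86 was the more abundant ligand in every tumor, per kilobase by 6.13 to 7.44 times in sgNT and 5.42 to 8.11 times in sgCda tumors. It stood at 48.1 to 76.4 CPM in sgNT (median 57.1) and 48.8 to 77.6 CPM in sgCda tumors (median 61.0). Between groups, edgeR estimated a log2 fold change of 0.064 (SE 0.14, 95% CI −0.25 to 0.38, edgeR unadjusted p = 0.660, adjusted 0.9996), and it was −0.0087 without sgNT replicate 2 and −0.021 without sgCda replicate 2. Of 10 other genes of costimulation, 0 had an unadjusted p under 0.05 in edgeR (6 positive, 4 negative). The receptors Cd28 (12.4 to 26.2 CPM) and Ctla4 (11.3 to 24.7 CPM) were detected in all tumors. The smallest p in this list belonged to Cd276, a further B7 family member, with a log2 fold change of −0.15 (SE 0.086, edgeR unadjusted p = 0.107, adjusted 0.9996).

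Genes of classical activation that are not effectors themselves were examined as a further list. Of 24 listed, 23 were tested, 7 with a positive and 16 with a negative log2 fold change (median −0.061), where 7205 of all 15299 genes tested were negative, and 2 (Ciita and Il1b) had an unadjusted p under 0.05, where the background is 2.5%. Ciita, the master regulator of MHC class II genes, ran from 173.8 to 226.4 CPM in sgNT (median 197.8) and from 124.3 to 199.4 CPM in sgCda tumors (median 135.9). Only sgCda replicate 2 reached the sgNT range (log2 fold change −0.40, SE 0.13, edgeR unadjusted p = 0.0120, adjusted 0.9996). Il1b, the gene for the cytokine IL-1β, ran from 19.9 to 32.0 CPM in sgNT and from 13.1 to 24.0 CPM in sgCda tumors (log2 fold change −0.44, SE 0.17, edgeR unadjusted p = 0.0264, adjusted 0.9996). Neither passed the adjusted threshold. Ifng, the gene for the main classical stimulus, stood at 8.70 ± 3.08 and 9.82 ± 4.27 CPM (SD, n = 5 each).

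Per kilobase of exon, the median levels over 10 tumors placed Arg1 first (75.9 CPM per kb), followed by Retnla (37.9), Il4ra (35.5), Hmox1 (27.2), Cd86 (16.4), Chil3 (3.71), Il12b (3.31), Nos2 (2.6), Cd80 (2.36) and Il10 (0.884). Only 2 steps in this order held without overlap: Cd86 exceeded Chil3, and Cd80 exceeded Il10, in all 10 tumors. The ranges of all other neighbours overlapped, and Retnla was above Il4ra in 5 of 10 tumors.

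The effectors also differed in how much they varied between tumors of a group. The biological coefficient of variation (BCV) that edgeR estimated was 0.808 for Retnla, 0.675 for Nos2, 0.612 for Chil3, 0.555 for Hmox1 and 0.411 for Arg1, each above that of at least 91.7% of genes tested. For Cd80 (0.195) and Cd86 (0.170) it was closer to the median over all genes tested, 0.158, and Il4ra (0.111) was below it. The most variable effectors therefore also had the widest intervals: for Retnla the data allow 0.512-fold to 5.49-fold, for Nos2 0.197-fold to 1.40-fold and for Hmox1 0.501-fold to 2.44-fold.

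Several effectors had their extreme values in the same tumors, and the share of all genes at an extreme in these tumors was not computed. In sgCda replicate 4, which had the lowest macrophage marker score of all 10 (7.77 mean log2 CPM) beside the quality measures given above, 6 effectors (Arg1, Chil3, Retnla, Il10, Il4ra and Hmox1) were at their lowest, while Cd80 was at its highest. In sgCda replicate 3, with the highest macrophage score (8.44) and the highest cytotoxic T cell score (6.45, against 4.56 to 5.72 in the others), Il10 and Hmox1 were at their highest and Il12b at its lowest. The part of these tissue and quality differences in the effector levels was not tested. Without both tumors, 0 effectors had an unadjusted p under 0.05 in edgeR, and the smallest was 0.0541, for Retnla at a log2 fold change of 1.38. For Cd80 the log2 fold change was then 0.014.

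**Figure D3:**
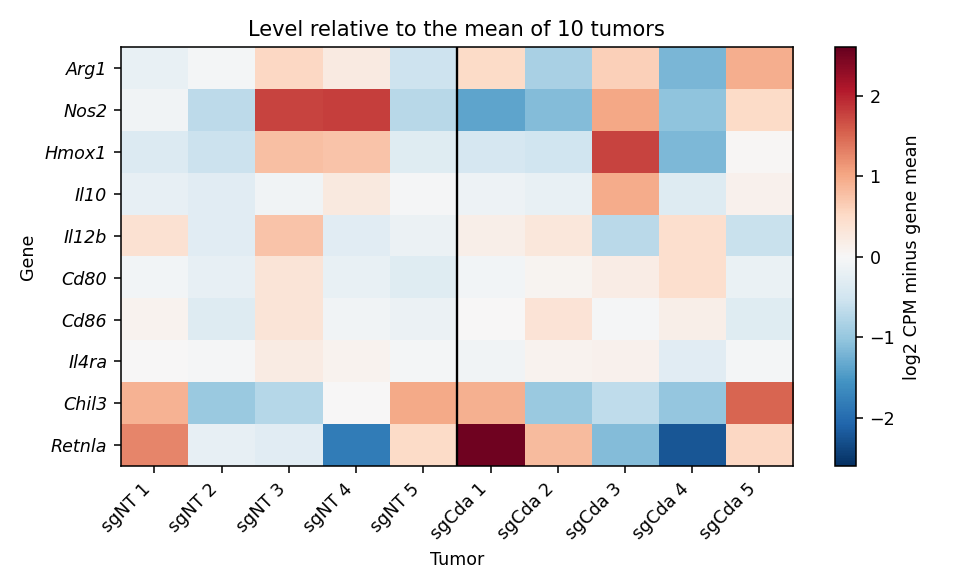
Each effector (rows) in each tumor (columns, sgNT left and sgCda right of the line) as log2 CPM minus the mean of that gene over 10 tumors. Nos2 and Hmox1 are high together in sgNT replicates 3 and 4 and sgCda replicate 3, in both groups, whereas Retnla runs from −2.21 in sgCda replicate 4 to 2.54 in sgCda replicate 1.

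Pairs of effectors were then compared across the 10 tumors by Pearson's r of log2 CPM, as a description of likeness with no test. Of the 45 pairs, 12 had an r above 0.5 and 2 an r below −0.5, and the share over all gene pairs was not computed. Hmox1 ran with Il10 (r = 0.88), Nos2 (0.82), Il4ra (0.72) and Arg1 (0.67). Nos2, an effector of classical activation, and Arg1, one of alternative activation, had an r of 0.59, so that tumors with more of the one tended to hold more of the other. Many other genes had higher values. By r with Hmox1, Nos2 took place 673, Il4ra place 1483 and Arg1 place 1868 of 11356 genes. By r with Nos2, Hmox1 took place 161 and Arg1 place 1677. By r with Il10, Hmox1 took place 140 and Arg1 (r = 0.53) place 2520 of 11357. Leaving out 1 tumor at a time kept the r of Hmox1 with Nos2 between 0.81 and 0.92, and that of Hmox1 with Il10 between 0.76 and 0.97. The r of Arg1 with Il4ra rested on sgCda replicate 4, without which it was 0.030 in place of 0.46, and that of Il10 with Il4ra was then 0.28 in place of 0.41.

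A second set was formed by Il12b, Cd86 and Cd80, with an r of 0.80 between Il12b and Cd86, 0.70 between Cd80 and Cd86 and 0.51 between Il12b and Cd80 (0.34 without sgNT replicate 3). By r with Il12b, Cd86 took place 58 and Cd80 place 1055 of 11356 genes. In the other direction, Il12b took place 98 by r with Cd86 and place 1215 by r with Cd80. Chil3 and Retnla, whose promoters are shown above, had an r of 0.57 (0.48 to 0.70 without 1 tumor). Retnla took place 372 by r with Chil3, and Chil3 place 937 by r with Retnla. The negative pairs were Il10 with Il12b (r = −0.67) and Chil3 with Cd80 (−0.62). All these values come from the same 10 libraries and share their depth and tissue content.

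**Figure D4:**
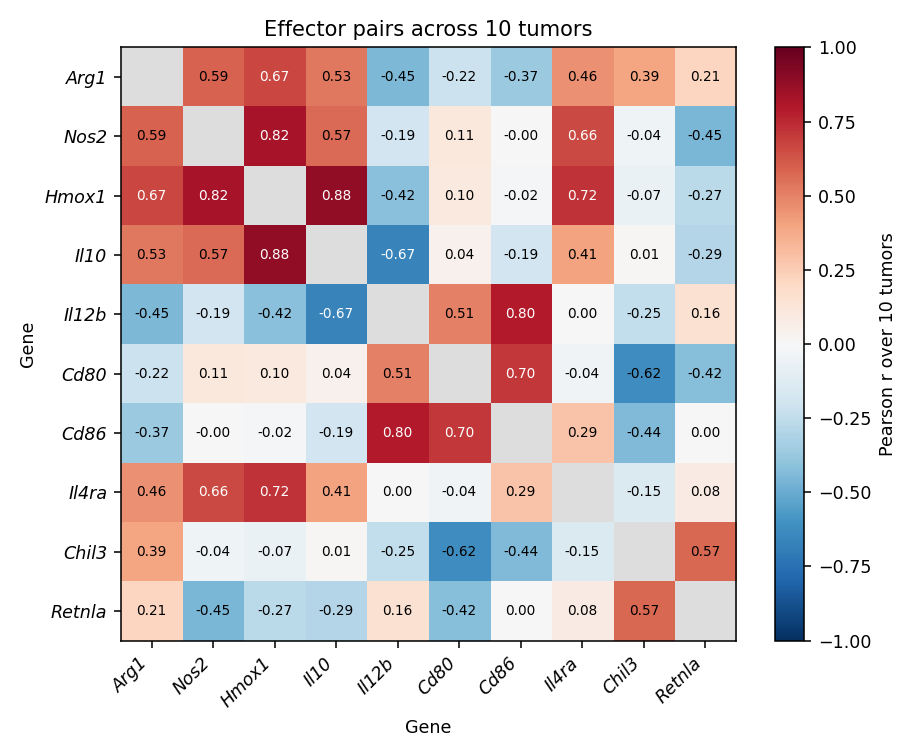
Pearson r of log2 CPM over 10 tumors for each pair of effectors, written in each cell, red for positive and blue for negative. Hmox1, Nos2, Il10, Arg1 and Il4ra have positive values with each other (0.41 to 0.88, although Arg1 with Il4ra is 0.030 without sgCda replicate 4), and Il12b, Cd80 and Cd86 another (0.51 to 0.80).

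The genes most like each effector were sought among genes with a mean log2 CPM of at least 2 (11357 genes), again as a description. With so few tumors, picking the top of so many genes can give a high r for unrelated genes too. How high was not computed, so the genes named are a ranking and not evidence of a relation. For Hmox1 they were the scavenger receptor gene Msr1 (r = 0.98), the glutathione synthesis gene Gclm (0.98) and Nus1 (0.97). For Cd86 they were P2rx4, an ATP-gated channel (0.96), Slamf7 (0.95) and the chemokine gene Cxcl16 (0.95). Those of Arg1 were Pdk1, which encodes a pyruvate dehydrogenase kinase (0.92), Xpot (0.92) and Cnnm4 (0.90), and those of Nos2 were Pcgf5 (0.95), the uridine phosphorylase gene Upp1 (0.94) and the potassium channel gene Kcnn4 (0.94).

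For Il4ra the nearest genes were Fnip2 (r = 0.98), Vrk2 (0.96) and Slc8a1 (0.95), for Il12b Rnf34 (0.96), Clcn7 (0.91) and Scin (0.91), and for Cd80 Gpr132 (0.94), Cep85 (0.92) and Il18rap (0.91). Retnla was most like C1d (0.94), Ttc5 (0.94) and Fcrls (0.91), Chil3 like Pcbp4 (0.89), Gtf2b (0.88) and Snx6 (0.84), and Il10 like Uso1 (0.97), Hat1 (0.96) and Eif4e (0.95). No other effector was among the 3 nearest genes of any effector, although Il10 was below the level cutoff and could not be among them.

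Finally, each effector was set against marker scores (mean log2 CPM of a list) of 8 cell types over the 10 tumors, which made 80 relations. By Pearson's r, 0 passed an adjusted p of 0.05 in a two-sided permutation test with 100000 resamples, and 17 had an unadjusted p under 0.05. By Spearman's rho, 1 passed and 13 had an unadjusted p under 0.05 in the same kind of test. The share of all genes with such relations to these scores was not computed. Effectors and scores share the same 10 tumors, so the relations are not independent of each other. The relation that passed was Il4ra with the macrophage score (r = 0.84, permutation p = 0.00109, adjusted 0.0528; rho = 0.92, permutation p = 0.00055, adjusted 0.044). Without the 2 tumors whose scores were farthest from the median, r was 0.86, and after centring each group on its mean it was 0.87. The macrophage score itself averaged 8.10 ± 0.19 with sgNT against 8.07 ± 0.28 with sgCda (SD, n = 5 each).

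Over all 10 tumors, r with the macrophage score was lower for the other effectors, and for several it depended on sgCda replicates 3 and 4. For Hmox1 r was 0.74 (permutation p = 0.0133, adjusted 0.112; rho = 0.64, permutation p = 0.0556), and without the 2 farthest tumors it was 0.44. Cd86 had an r of 0.55 (permutation p = 0.104, adjusted 0.334; rho = 0.43, permutation p = 0.218) that was 0.94 without sgCda replicates 3 and 4. Without these 2 tumors r was also higher for Il12b (0.85 in place of 0.11; all tumors permutation p = 0.751, rho = 0.055, permutation p = 0.892) and Cd80 (0.79 in place of 0.29; all tumors permutation p = 0.417, rho = 0.28, permutation p = 0.427), and for Cd80 it was 0.84 without sgCda replicate 4 alone. For Il10 r was 0.55 (permutation p = 0.0825; rho = 0.44, permutation p = 0.206) and −0.038 without them. For Retnla r was 0.019 (permutation p = 0.958; rho = 0.030, permutation p = 0.946), and for Chil3 it was −0.25 (permutation p = 0.468; rho = −0.10, permutation p = 0.786). Arg1 had an r of 0.26 (permutation p = 0.470; rho = 0.22, permutation p = 0.536) and Nos2 one of 0.51 (permutation p = 0.134; rho = 0.39, permutation p = 0.264).

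With scores of other cell types, 8 relations had an r above 0.7 or below −0.7. Chil3 paralleled the fibroblast score (r = 0.83, permutation p = 0.00244, adjusted 0.0642; rho = 0.88, permutation p = 0.00161, adjusted 0.0644; r = 0.85 without the 2 farthest tumors), and Cd80 ran against it (r = −0.82, permutation p = 0.00321, adjusted 0.0642; rho = −0.66, permutation p = 0.0443; r = −0.60 without the 2 farthest). Hmox1 had an r of 0.88 with the cytotoxic T cell score (permutation p = 0.00132, adjusted 0.0528; rho = 0.73, permutation p = 0.0204), which was 0.57 without sgCda replicate 3 and sgNT replicate 3. Il4ra with the same score had an r of 0.76 (permutation p = 0.0139, adjusted 0.112; rho = 0.84, permutation p = 0.00355, adjusted 0.0947; r = 0.87 without these 2 tumors), and Il10 one of 0.78 (permutation p = 0.0210, adjusted 0.152; rho = 0.65, permutation p = 0.0491), which was 0.38 without them. With the neutrophil score Hmox1 had an r of −0.80 (permutation p = 0.0075, adjusted 0.112; rho = −0.48, permutation p = 0.167) and Il10 one of −0.78 (permutation p = 0.0113, adjusted 0.112; rho = −0.42, permutation p = 0.233). Without sgCda replicate 3 and sgNT replicate 4, which held the lowest neutrophil scores, these were −0.28 and 0.15. Il12b had an r of 0.76 with the dendritic cell score (permutation p = 0.0125, adjusted 0.112; rho = 0.76, permutation p = 0.0155). None of these passed the adjusted threshold. Skeletal muscle markers, which ran from 1.49 to 2232 summed CPM across tumors, had no relation to any effector at an unadjusted p under 0.05, the largest r being 0.57 for Hmox1 (permutation p = 0.0832; rho = 0.41).

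**Figure D5:**
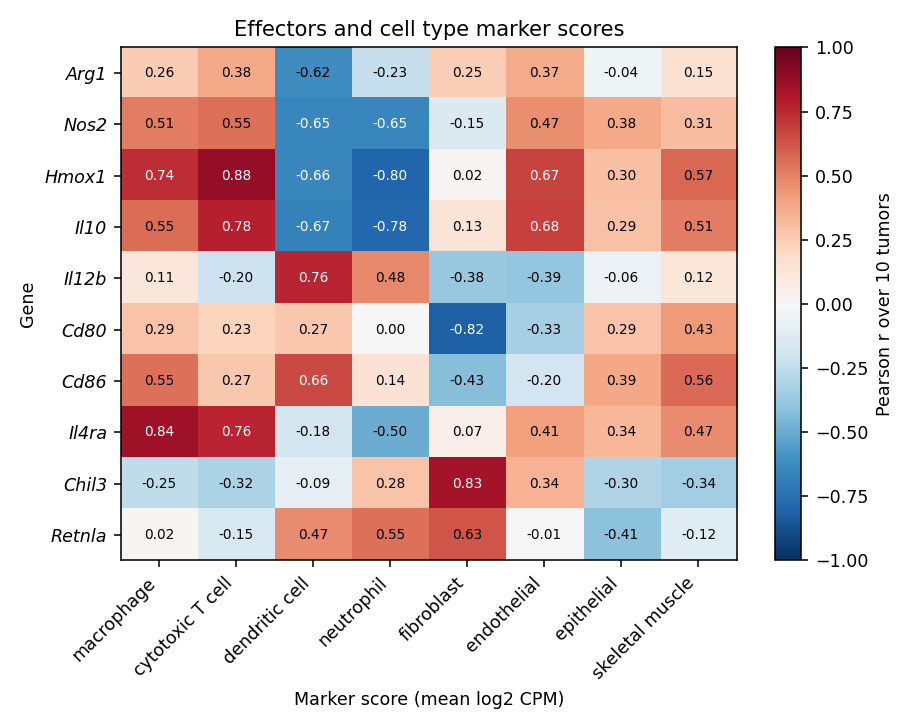
Pearson r over 10 tumors between each effector (rows, log2 CPM) and each cell type marker score (columns, mean log2 CPM), written in each cell. The largest values are Hmox1 with the cytotoxic T cell score (0.88) and Il4ra with the macrophage score (0.84), and none passed an adjusted p of 0.05.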

How the data were processed

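Per the labels and the study's methods, total RNA of whole tumors was extracted with TRIzol, polyadenylated RNA was made into stranded libraries and short reads were aligned by the authors with Bowtie and TopHat to GRCm38 (mm10). The deposited values are raw HTSeq counts per Ensembl gene, not normalized, with a column for each tumor. HTSeq summary lines, left out here, held 45.4% to 51.2% of all lines' counts. Groups came from sample titles, and each tumor is taken to come from its own mouse; p-values measure the spread between these tumors. Genes were filtered with filterByExpr (minimum count 10, minimum total 15), scaled with TMM and tested with edgeR's quasi-likelihood test (edgeR 4.0.16, R 4.3.3, 10 tumors, no covariate), with Benjamini-Hochberg adjustment over all genes tested. The test was checked on simulated data. CPM use TMM-scaled library sizes, and log2 CPM a prior count of 2. Positions and exon lengths are from GENCODE for GRCm38.

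The 10 effectors and the gene lists were chosen with earlier results of these data known. Named genes were the effectors, Cda, from each pathway list those with an unadjusted p under 0.05 or else the smallest p, and the 3 genes most like each effector. Other pathway genes given were picked for their role, after values were seen. Alternatives were DESeq2 size factors, library totals, other filters, DESeq2 1.42.0, limma-voom (limma 3.58.1), a replicate block, the macrophage score as covariate and removal of each tumor.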

Additional observations from a re-analysis of the deposited data

Results flagged for a closer look

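In 36 groups of 5 values (10 effectors and 8 marker scores in both groups of tumors), 2 values were distant from the remaining 4 by Dixon's test, which chance gives in about 1 in 20 groups, here 1.8. Neither was an effector. The neutrophil marker score was 2.09 in sgNT replicate 4, against 2.75 to 2.84 in the other sgNT tumors, and 1.71 in sgCda replicate 3, against 3.13 to 3.47 in the other sgCda tumors. Hmox1 and Nos2 were high in both tumors, and the part of neutrophil content in these levels was not tested.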

How the results depend on the processing

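With each of the 19 alternatives, 0 genes and 0 effectors passed an adjusted p of 0.05, and 0 effectors had an unadjusted p under 0.05. The number of genes at an unadjusted p under 0.05 was 830 of 26302 tested without the filter, against 382 of 15299 in the main analysis. It ran from 280 to 747 over the fits that left out a tumor, with 747 without sgCda replicate 3. Nos2, Il4ra and Cd80 kept their direction in all 19 alternatives. Under limma-voom the log2 fold changes of Chil3 and Hmox1 turned to −0.12 and −0.12, that of Retnla was 0.26 in place of 0.75 and that of Arg1 0.0033 in place of 0.19, and with the macrophage score as covariate that of Chil3 to −0.11. Without both sgCda replicates 3 and 4, an alternative chosen after seeing the data, those of Il10 and Hmox1 turned to −0.011 and −0.47. Over the fits that left out a tumor, log2 fold changes ran from −0.063 to 0.40 (Arg1), −0.45 to 0.35 (Chil3), −0.25 to 1.2 (Retnla), −0.070 to 0.35 (Il10), −0.64 to 0.37 (Hmox1), −0.28 to 0.051 (Il12b) and −0.021 to 0.17 (Cd86). Apart from the tumors left out, the cause was not tested.

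The replicate numbers recur in both groups. For each gene tested, the group mean was taken off its log2 CPM. Correlations of these deviations between same-numbered tumors ran from −0.43 to 0.34. They were above 0.1 for 3 and 5, each of which correlated best with its own number, and not for the other 3 numbers, so the tumors were not treated as pairs. With the replicate block the count at an unadjusted p under 0.05 was 325, and Chil3 and Hmox1 turned to −0.075 and −0.095, while Retnla was at 0.25 and Arg1 at 0.0097. Of the 80 relations with marker scores, 0 to 3 passed an adjusted p of 0.05 by Pearson's r when a tumor was left out (2 without sgNT replicate 2, 1 without sgCda replicate 3, 3 without sgCda replicate 5). Leaving out a tumor moved r with the macrophage score from −0.041 to 0.54 for Arg1, −0.32 to 0.21 for Retnla and −0.17 to 0.55 for Il12b. Depth limits Il10 most, at 28 to 90 counts per library.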
